A study of Mus musculus with 89 samples.

Results

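The response of the allergic lung to the highest dose of uncoated copper oxide was described from 11 of the 89 samples of the series. These were the 3 samples of OVA-challenged mice that received core CuO at a daily dose of 40 μg (CuO 40 + OVA) and the 8 samples of OVA-challenged mice that received no nanomaterial (OVA controls). Both groups were chosen by their labels alone. All mice were female BALB/c, 6 to 8 weeks old, and had been sensitized with ovalbumin and alum, controls included. After a rest they were given OVA, alone or with dispersed particles, by oropharyngeal aspiration on consecutive days, and lung tissue was taken 24 h after the last one. A sample was a pool of the RNA of 2 mice, labelled with Cy3 or Cy5 on a 2-colour Agilent array. The p-values below therefore measure the spread between pools. The dose follows the sample descriptions, which give μg, while the treatment text of the labels gives the same figure in mg. The OVA controls served every OVA-challenged group of the series. PBS-challenged mice (PBS controls, n = 7; CuO 40, n = 3), OVA-challenged mice given CuO 10 or CuO 2.5 (n = 3 each) and OVA-challenged mice given carboxylated CuO at the same dose (CuO COOH 40 + OVA, n = 3) were used for comparison.

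Ovalbumin given to sensitized mice draws eosinophils and Th2 lymphocytes into the airways, and the airway epithelium turns to mucus production. Copper released from CuO particles is bound by metallothioneins, whose genes are switched on by the metal-sensing factor Mtf1 through metal response elements in their promoters. Copper can also generate reactive oxygen species, and the factor Nrf2 then drives genes for glutathione synthesis, haem breakdown and iron storage. Damage to the epithelium and to macrophages recruits neutrophils and monocytes and is followed by tissue repair.

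The tissue label was checked on its markers: Sftpc, Scgb1a1 and Ager, which mark alveolar type 2, club and alveolar type 1 cells, were above background in 8 of 8 OVA controls and 3 of 3 CuO 40 + OVA samples. The median foreground intensity was 85.5 to 142 in the exposed samples and 61.0 to 164.5 in the OVA controls, and 51.7% to 64.6% and 48.1% to 65.4% of their spots were well above background. The exposed samples lay on slides 1, 2 and 3, replicate 2 in Cy5 and replicates 1 and 3 in Cy3. OVA replicates 1 to 4 lay on slides 1 to 3, and OVA replicates 5 to 8 on slides 4 to 6, which held no core CuO sample. Median foreground was 92 to 164.5 in the former and 61 to 84 in the latter. No exposed sample shared an array with an OVA control. A level given below is an adjusted log2 intensity, that is, the normalized log2 intensity of a gene from which differences due to the dye, the slide and the place on the slide were subtracted. A log2 fold change comes from the limma fit with dye and array as terms, which compares samples within arrays and links both groups through the other groups on those arrays, so that it can differ from the difference of the levels. Values with array as a random block, which also uses differences between arrays, are given for called genes named by rule where they move the effect against OVA controls by more than 1.5 times or end the call, and for some genes that were not called.

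Against OVA controls, 361 of 22911 genes (1.58%) were called, that is, had an adjusted p below 0.05 (limma with Benjamini-Hochberg adjustment) and an absolute log2 fold change above 0.58. Of these, 222 (0.969%) were higher and 139 (0.607%) lower in CuO 40 + OVA. Counts of called list members below are to be set against these shares of all genes. In 203 of the higher genes all 3 exposed samples lay above all 8 controls, and in 123 of the lower genes all lay below, against 9.02% and 7.37% of all genes with values. The number of calls depended on the batch terms and on single samples. It was 946 of the 22911 genes with array as a random block (453 higher and 493 lower), 26 without exposed replicate 2, 77 without exposed replicate 1 and 213 without OVA replicate 3. All 361 genes kept their sign without any 1 of these samples. Without exposed replicate 2 and with dye, slide and position as terms in place of array, 918 genes were called.

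Of the 361 genes, 221 were called in the same direction with dye and array, with array as a random block, with dye, slide and position, and with no batch terms. Among the 78 called genes named by rule, 12 were called with array as a random block and without any 1 of the samples. The 7 higher ones were Hmox1, Clec4d, Mt1, Mt2, Fth1, Hp and Spp1, and the 5 lower ones Ear1, Ear2, Ear10, Igfbp3 and Cyp1a1. Of the other named genes, many lost the call without 1 sample: 65 of the 78 did so without exposed replicate 2, 47 without replicate 1 and 21 without replicate 3. With OVA and PBS controls of slides 1 to 3 only, 22 of the 78 lost the call. The 12 largest rises and the 12 largest falls were named only where the groups did not overlap. Their separation below was thus fixed by the rule and is no further evidence. Among them were Orm1, Orm2, Hmox1, Clec4d, the stefin genes, Retnlb, the Ear genes, Fabp1, Hbb-bt, Alas2 and Gzma.

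**Figure D1:**
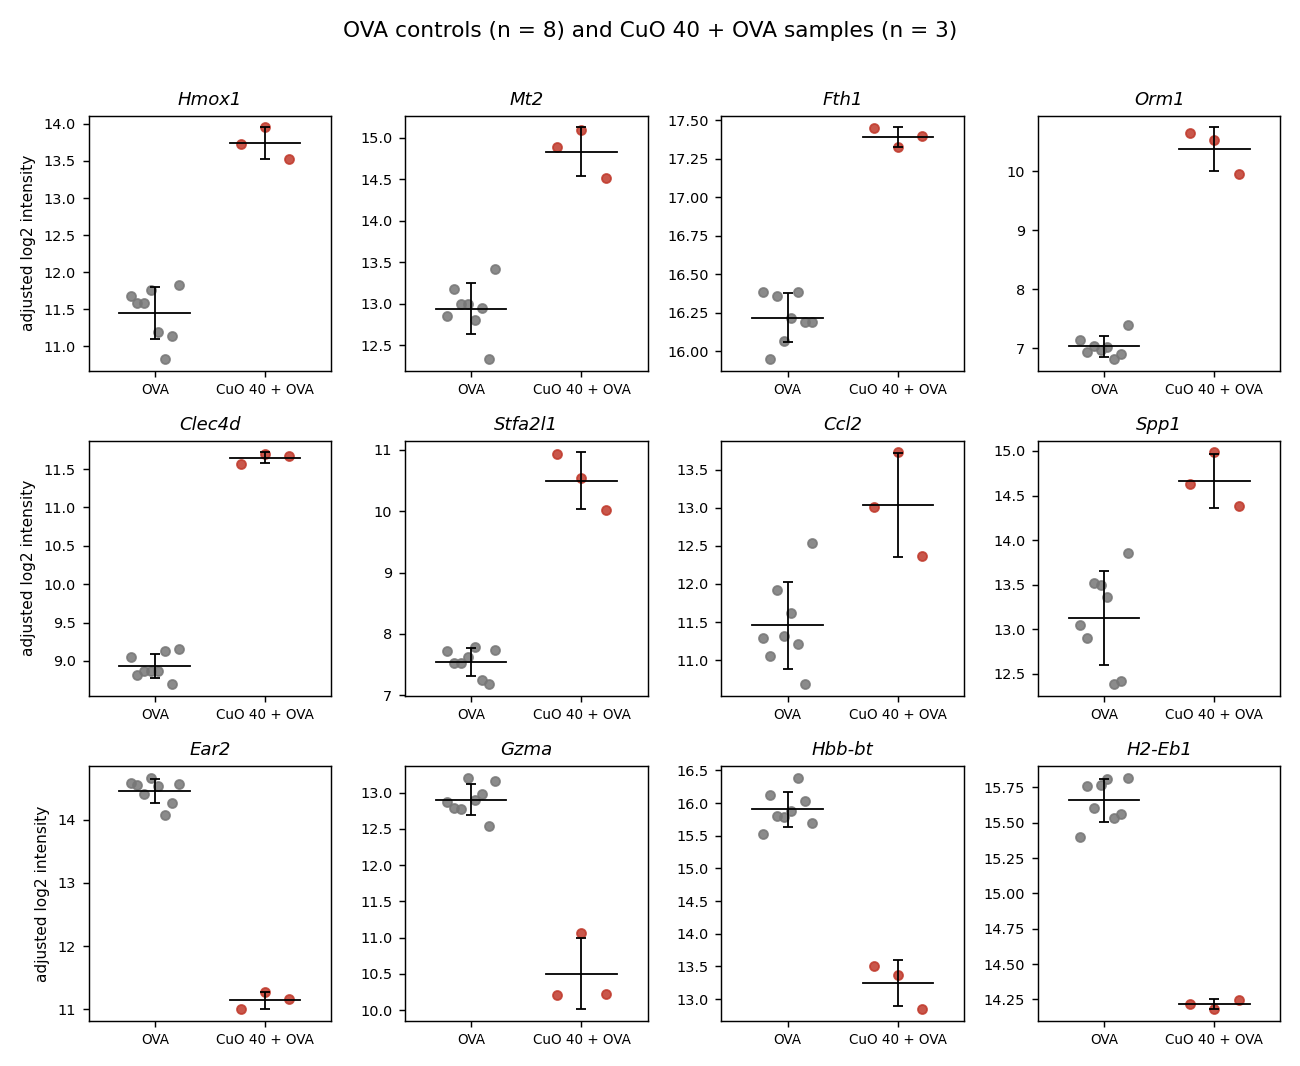
Adjusted log2 intensity of selected genes in every sample of the OVA controls (n = 8) and CuO 40 + OVA (n = 3), with the group mean (line) and SD (bars). Hmox1 lay between 13.53 and 13.96 in the exposed samples and between 10.83 and 11.82 in the controls, and Ear2 lay between 11.00 and 11.27 against 14.07 to 14.67.

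Of 21 genes of metallothioneins and of zinc or copper transport, 3 were called higher and 0 lower. Mt2, one of the metallothioneins that bind zinc and copper, had levels of 14.88, 15.10 and 14.51 in exposed replicates 1, 2 and 3 and of 12.34 to 13.42 in the OVA controls (median 12.97). The groups did not overlap, and the log2 fold change was 2.65 ± 0.33 (SE; adjusted p = 0.000104). Mt1 was 12.06, 12.19 and 12.03 in the exposed samples and 10.15 to 10.83 in the controls (median 10.55), again without overlap, with a log2 fold change of 1.89 ± 0.20 (adjusted p = 1.15e-05). The zinc and manganese importer Slc39a14 was the third called member of the list, with a log2 fold change of 1.51 ± 0.26 (adjusted p = 0.00325; 0.85 with array as a random block). The median over the list was 0.06, against 0.02 over all genes. The copper exporter Atp7a (0.06 ± 0.14) and the zinc exporter Slc30a1 (-0.14 ± 0.17) were not called.

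The promoters of both metallothionein genes are shown because they hold the letters to which the metal-sensing factor is known to bind. The 250 bases before the start given by each promoter entry were taken from RefSeq (GRCm38.p6). They lay at chr8:94178839-94179088 for Mt1 and chr8:94172368-94172617 for Mt2, both on the plus strand. The Mt2 window ends just before the gene, which is annotated from 94172618. The Mt1 gene is annotated from 94178883, so that most of the Mt1 window lies inside the gene. Capitals mark matches, on either strand, to the core of the metal response element, TGCACNC or TGCGCNC.
Mt1: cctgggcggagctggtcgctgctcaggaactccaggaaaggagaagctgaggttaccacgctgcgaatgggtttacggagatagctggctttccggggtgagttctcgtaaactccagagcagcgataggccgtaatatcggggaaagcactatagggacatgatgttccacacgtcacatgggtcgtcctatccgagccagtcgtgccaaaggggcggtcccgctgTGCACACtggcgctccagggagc
Mt2: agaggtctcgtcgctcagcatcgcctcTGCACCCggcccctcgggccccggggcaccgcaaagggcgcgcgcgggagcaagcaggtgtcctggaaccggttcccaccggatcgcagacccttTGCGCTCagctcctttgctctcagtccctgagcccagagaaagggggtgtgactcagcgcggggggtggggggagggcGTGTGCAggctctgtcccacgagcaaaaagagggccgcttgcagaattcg
The Mt1 window held 1 match, which began 23 bases before the end of the window and inside the annotated gene. The Mt2 window held 3 matches at 223, 128 and 50 bases before the start. Of 32841 mouse promoters of this length 21.4% held at least 1 such match. Of the 11 called genes of the metal and Nrf2 lists, 9 had a promoter in the table. The metal core was found in Mt1, Mt2, Gclm and Srxn1, and the core of the antioxidant response element (TGACNNNGC or TGAGNNNGC on either strand, present in 23% of promoters) in Mt2, Gclm, Prdx1, Slc7a11, Srxn1 and Txnrd1.

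Among the 26 measured Nrf2 targets, 8 were called higher and 0 lower, with a median log2 fold change of 0.38. Hmox1, the enzyme that degrades haem, had the smallest adjusted p of all genes together with Clec4d. Its level was 13.73, 13.96 and 13.53 in the exposed samples and 10.83 to 11.82 in the OVA controls (median 11.58). All exposed samples were clearly above all controls, and the log2 fold change was 4.03 ± 0.33 (adjusted p = 2.37e-07), or 16.3-fold. With array as a random block it was 2.08, so its size depends on how arrays were treated while its direction and call did not. The ferritin subunits that store iron rose as well. Fth1 was at 17.45, 17.33 and 17.39 against 15.95 to 16.39 in controls (median 16.20), a log2 fold change of 1.93 ± 0.25 (adjusted p = 0.000125; 1.15 with array as a random block). Ftl1 was at 15.45, 15.60 and 15.41 against 14.50 to 14.84, a log2 fold change of 1.23 ± 0.25 (adjusted p = 0.0107). Neither ferritin gene had an exposed sample within the control range.

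Genes of the glutathione and thioredoxin arms of the Nrf2 list followed. Slc7a11, the cystine importer that feeds glutathione synthesis, had a log2 fold change of 1.13 ± 0.26 (adjusted p = 0.0264) but of 0.30, and no call, with array as a random block, and its exposed levels of 6.63 to 6.70 met the control range of 6.03 to 6.66, where 6 of the 8 samples were above background. Gclm, a subunit of the enzyme that begins glutathione synthesis, was 0.71 ± 0.17 higher on the log2 scale, the sulfiredoxin gene Srxn1 0.92 ± 0.20, the thioredoxin reductase gene Txnrd1 0.80 ± 0.17 and the peroxiredoxin gene Prdx1 0.69 ± 0.17, with adjusted p from 0.0186 to 0.0372. Nqo1, a quinone reductase often used to report Nrf2 activity, was at -0.08 ± 0.24 and not called. With array as a random block 3 of the 26 genes were called higher and 1 lower, and the list median was 0.11. The 3 were Hmox1, Fth1 and Ftl1, so that Gclm, Srxn1, Txnrd1 and Prdx1 were not called higher in that fit.

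Protein quality control genes did not pass the test. None of 21 heat shock and co-chaperone genes was called (median log2 fold change 0.36; 5 with array as a random block), while Hspa1a, an inducible heat shock protein, had levels of 13.38, 13.35 and 13.28 against 10.27 to 12.00 in controls. Its groups did not overlap and its log2 fold change was 2.90 ± 0.87 (adjusted p = 0.0955; called with array as a random block at 2.52). None of 31 proteasome subunits was called (median 0.21), and of 22 p53 and DNA damage response genes only Phlda3 was, at 0.86 ± 0.20 (adjusted p = 0.0296), a call that was lost with array as a random block at 0.50.

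Acute phase genes showed the largest rises. The orosomucoids are plasma proteins made in inflammation, and Orm1 had levels of 10.65, 10.52 and 9.95 against 6.82 to 7.40 in OVA controls (median 7.00). Orm2 was at 9.92, 9.71 and 9.23 against 6.32 to 7.05 (median 6.59). The lowest exposed sample of both genes was replicate 3 and still lay well above the controls. Their log2 fold changes were 4.70 ± 0.70 (adjusted p = 0.00102) and 4.32 ± 0.67 (adjusted p = 0.00157), but as near-identical genes their probes may not tell them apart. Hp, the haemoglobin-binding haptoglobin, rose by 1.96 ± 0.24 (adjusted p = 9.76e-05; 1.09 with array as a random block), with levels of 17.17, 16.66 and 16.01 against 15.05 to 15.79. Lcn2, which withholds iron from bacteria, rose by 2.24 ± 0.54 (adjusted p = 0.0328), with levels of 15.79, 14.96 and 14.54 against 13.16 to 13.63. Both were highest in replicate 1 and lowest in replicate 3, without overlap with the controls. In all, 6 of 19 acute phase genes were called higher and 0 lower, the others being Orm3 (1.32) and Saa4 (0.97), and the list median was 1.00. The serum amyloid genes Saa1 and Saa3, which also resemble each other, had log2 fold changes of 2.52 ± 0.65 (adjusted p = 0.0502) and 3.07 ± 0.85 (adjusted p = 0.0657) and were not called, although their exposed samples all lay above the controls. Saa1 was called with array as a random block, at 2.36.

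**Figure D2:**
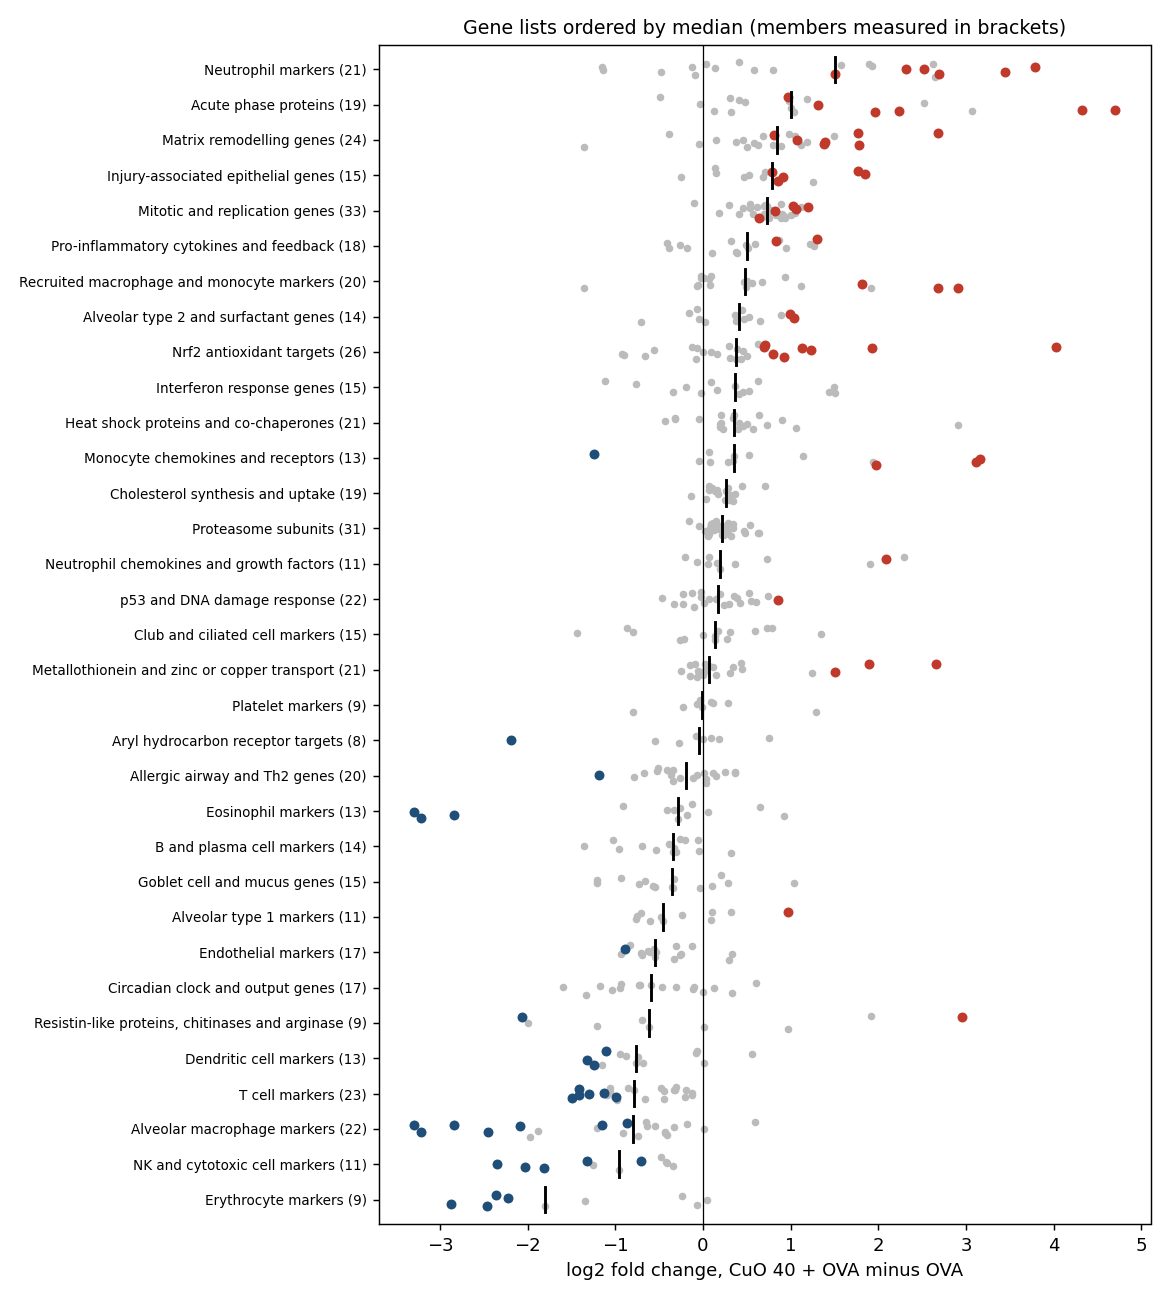
Log2 fold change (CuO 40 + OVA minus OVA controls) of every measured member of each gene list, red where called higher, blue where called lower and grey where not called, with the list median as a bar and the number of measured members in brackets. Neutrophil markers (median 1.50) and acute phase proteins (1.00) lay highest, and erythrocyte (-1.80) and NK cell markers (-0.96) lowest.

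Of 21 neutrophil markers 6 were called higher and 0 lower, with a median log2 fold change of 1.50, and with array as a random block 13 were called higher and 2 lower. The list mean was 9.97 to 10.35 in the exposed samples and 9.16 to 9.44 in the controls. In whole tissue, more cells of a type and more RNA per cell cannot be told apart. Clec4d, a C-type lectin of myeloid cells, was at 11.57, 11.70 and 11.68 against 8.70 to 9.15 (median 8.87). The exposed samples lay close together and far above the controls, with a log2 fold change of 3.78 ± 0.32 (adjusted p = 2.37e-07). Its neighbour Clec4e rose by 2.70 ± 0.51 (adjusted p = 0.00686). Mmp8, the neutrophil collagenase, was at 9.88, 9.50 and 9.45 against 7.30 to 8.10, a log2 fold change of 2.52 ± 0.42 (adjusted p = 0.00239). Il1r2, a decoy receptor for interleukin 1, and Lrg1 rose by 2.31 ± 0.45 and 1.50 ± 0.39.

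The stefin genes, small cysteine protease inhibitors of neutrophils, were among the largest rises. Stfa2l1 was at 10.93, 10.54 and 10.01 against 7.18 to 7.79 in the controls, a log2 fold change of 3.45 ± 0.70 (adjusted p = 0.0112). Stfa1, Stfa2, Cstdc4 and Cstdc5 had log2 fold changes of 3.34 to 3.80 and were called, but these genes are so alike in sequence that their values may be 1 signal. The alarmin genes S100a8 (2.65 ± 0.69, adjusted p = 0.0526) and S100a9 (2.63 ± 0.68, adjusted p = 0.0502) missed the threshold with all exposed samples above all controls. The formyl peptide receptors went the other way, with all exposed samples below the controls and uncalled log2 fold changes of -1.14 ± 0.46 for Fpr1 and -1.16 ± 0.35 for Fpr2. Of 11 neutrophil chemokines and growth factors 1 was called, Cxcl2, at 7.49, 7.28 and 6.68 against 5.99 to 6.41 (2.09 ± 0.35, adjusted p = 0.00259; 0.87 with array as a random block), and above background in 5 of the 8 controls.

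Of 13 monocyte chemokines and receptors 3 were called higher and 1 lower. Ccl2, the main ligand of the monocyte receptor Ccr2, was at 13.01, 13.73 and 12.37, and the OVA controls at 10.69 to 12.54 (median 11.30). Ccl7 was at 11.59, 12.25 and 10.92 against 9.38 to 11.53 (median 10.42). In both genes replicate 3 lay within the control range. The log2 fold changes were 3.15 ± 0.67 (adjusted p = 0.0156; 2.10 with array as a random block) and 3.11 ± 0.67 (adjusted p = 0.0178; 1.44 with array as a random block). Ccl3 was at 9.44, 9.45 and 8.83, all above the highest control at 8.79, and rose by 1.97 ± 0.49 (adjusted p = 0.0395). Cx3cl1, a membrane-bound chemokine of endothelium and epithelium, fell by 1.25 ± 0.30 on the log2 scale (adjusted p = 0.0307), with all exposed samples below all controls.

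Of 20 markers of recruited macrophages and monocytes 3 were called higher. Spp1, or osteopontin, was at 14.62, 14.98 and 14.38 against 12.38 to 13.85 (median 13.21), with no overlap and a log2 fold change of 2.68 ± 0.35 (adjusted p = 0.000195; 1.74 with array as a random block). Gpnmb, a glycoprotein of lipid-laden macrophages, rose by 2.90 ± 0.60 (adjusted p = 0.0136), and the lipopolysaccharide co-receptor Cd14 by 1.81 ± 0.31 (adjusted p = 0.00304). The list median was 0.48 and changed to 0.03 with array as a random block, with 5 called higher and 2 lower. Among 18 pro-inflammatory cytokine and feedback genes, Il11 (1.30 ± 0.25, adjusted p = 0.008; 0.75 with array as a random block) and Tnfaip2 (0.83 ± 0.21, adjusted p = 0.0472) were called. The call of Tnfaip2 was lost with array as a random block, at 0.32. Tnf was at 8.18, 7.92 and 7.60 against 6.93 to 7.42, which did not overlap, but was not called (1.26 ± 0.36, adjusted p = 0.0787).

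Markers of alveolar macrophages were among the genes called lower. Of 22 markers, 7 were called lower and 0 higher, against 0.607% and 0.969% of all genes. In 20 all exposed samples lay below all controls, against 7.37% of all genes. The list mean was 9.33 to 9.49 in the exposed samples and 10.64 to 10.81 in the controls, and the median log2 fold change was -0.80. With array as a random block 16 were called lower, as were 493 of all 22911 genes. The eosinophil-associated ribonucleases led. Ear2 was at 11.00, 11.27 and 11.16 against 14.07 to 14.67 (median 14.54). Ear1 was at 9.26, 9.56 and 9.37 against 12.26 to 12.76 (median 12.57). Each exposed sample was several log2 units below every control. The log2 fold changes were -3.29 ± 0.44 for Ear2 (adjusted p = 0.000226), -3.21 ± 0.41 for Ear1 (adjusted p = 0.000125) and -2.84 ± 0.36 for Ear10 (adjusted p = 0.000121). These paralogues share much of their sequence and may report 1 signal. Fabp1 fell by 2.46 ± 0.62 (adjusted p = 0.0448; above background in 2 of the 3 exposed samples), and Krt79 (-2.09), the surface integrin Itgax (-1.15) and Pparg (-0.86), the nuclear receptor on which alveolar macrophages depend, were also called. The scavenger receptor Marco was at -1.98 ± 0.76 and not called.

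The Ear genes stand in the eosinophil list too, where they were the 3 called of 13 members. Of the 13 log2 fold changes 10 were negative (median -0.29), in 7 genes all exposed samples lay below all controls (7.37% of all genes), and 3 to 7 were called lower under the alternatives. The granule protein genes Epx (0.92 ± 0.34) and Prg2 (0.65 ± 0.33), the interleukin 5 receptor gene Il5ra (-0.29 ± 0.24), Siglecf (-0.33 ± 0.21) and the eotaxin receptor gene Ccr3 (-0.41 ± 0.43) were not called. Siglecf and Ccr3 had all exposed samples below all controls, whereas Epx, Prg2 and Il5ra overlapped.

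Lymphoid and dendritic cell markers were among the genes called lower, except those of B and plasma cells. All 23 T cell markers had a negative log2 fold change (median -0.79), in 18 all exposed samples lay below all controls (7.37% of all genes), and 6 were called lower (0.607% of all genes), among them Cd6, Cd3g, Cd3d, Cd28 and Sh2d1a. Cd3g, a chain of the T cell receptor complex, was at 7.81, 8.25 and 8.24 against 9.07 to 9.57 (-1.41 ± 0.32, adjusted p = 0.0247). Cd6 was at 9.05, 9.55 and 9.51 against 10.30 to 10.96 (-1.49 ± 0.37, adjusted p = 0.0387). In both genes replicate 1 was the lowest and the groups stood apart. The lineage genes Cd4 (-0.20 ± 0.18) and Cd8a (-0.48 ± 0.29) were not called. Without exposed replicate 2 none of the 6 kept its call, Cd3d was at -0.91 in place of -1.41 (-2.17 without exposed replicate 1), and Gata3, the Th2 master regulator, also lost it.

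Of 11 NK and cytotoxic cell markers 5 were called lower. Gzma, a granule protease, was at 10.21, 11.07 and 10.22 against 12.54 to 13.21 (median 12.89), a log2 fold change of -2.34 ± 0.40 (adjusted p = 0.00303). Replicate 2 was the highest exposed sample and was still below every control. Ccl5 (-2.03 ± 0.49), Nkg7 (-1.81 ± 0.38), Klrd1 (-1.32 ± 0.31) and Klra8 (-0.71 ± 0.17) followed. Of 13 dendritic cell markers 3 were called lower. The class II antigen presentation gene H2-Eb1 was at 14.22, 14.18 and 14.25 against 15.40 to 15.82 (-1.32 ± 0.29, adjusted p = 0.0186), H2-Ab1 fell by 1.24 ± 0.28 (adjusted p = 0.025) and Clec9a, a marker of cross-presenting dendritic cells, by 1.11 ± 0.22 (adjusted p = 0.0101). Without exposed replicate 2, H2-Eb1 was at -0.71 and H2-Ab1 at -0.68, and neither was called. Clec9a was above background in 2 of the 3 exposed samples. None of 14 B and plasma cell markers was called (median -0.34; 6 lower with array as a random block).

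Red blood cell transcripts were also among the genes called lower. The β-globin gene Hbb-bt was at 13.51, 13.37 and 12.84 against 15.53 to 16.39 (median 15.84), a log2 fold change of -2.87 ± 0.52 (adjusted p = 0.00483). Alas2, the erythroid enzyme that begins haem synthesis, was at 9.44, 8.94 and 8.42 against 10.73 to 11.57 (-2.47 ± 0.49, adjusted p = 0.0099). All exposed samples were below the controls in both. Of 9 erythrocyte markers 4 were called lower and the list median was -1.80, with list means of 9.39 to 9.84 against 10.62 to 11.17. The globin genes cross-hybridize, and Epb42 and Rhag were above background in 0 of 8 controls and 0 of 3 exposed samples. Whether a difference in blood content took part in the lower lymphoid and myeloid markers was not tested.

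Goblet cell genes lay lower in the exposed samples, but passed the test only in some fits. Muc5ac, the gel-forming mucin of goblet cells, was at 9.16, 8.78 and 9.14 in CuO 40 + OVA and 10.60 to 11.62 in OVA controls (median 11.16). Fcgbp, which is secreted with mucus, was at 9.29, 9.09 and 9.46 against 10.81 to 11.85 (median 11.35). In both genes all exposed samples lay below all controls. Their fitted log2 fold changes with dye and array were nevertheless -1.21 ± 0.80 (adjusted p = 0.59) and -1.21 ± 0.58 (adjusted p = 0.367) and were not called. With array as a random block they were -2.45 and -2.48 and were called, and without exposed replicate 2 they were 0.69 and 0.24. None of 15 goblet cell genes was called in the fit with array terms (median -0.36), and 11 were called lower with array as a random block (median -1.14). In 9 of the 15, all exposed samples lay below all controls, against 7.37% of all genes. The list mean was 9.60 to 10.00 in the exposed samples and 10.60 to 11.25 in the controls.

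Chia1, an acidic chitinase of the allergic lung, was called, at 11.72, 11.81 and 11.89 against 13.39 to 14.71 (-2.06 ± 0.42, adjusted p = 0.012). Retnlb, a resistin-like protein, was called in the other direction, at 10.59, 10.74 and 10.48 against 8.53 to 9.89 (2.96 ± 0.50, adjusted p = 0.00304; 1.69 with array as a random block). Both genes separated the groups fully. Among 20 Th2 genes only Gata3 was called, at 9.58, 9.82 and 9.44 against 10.34 to 10.61 (-1.18 ± 0.25, adjusted p = 0.014), and 6 were called lower with array as a random block. The eosinophil attractant Ccl24 was at 10.89, 11.42 and 10.08 against 12.53 to 13.82, fully apart, with a log2 fold change of -0.78 ± 0.58 (adjusted p = 0.651) that was called with array as a random block at -2.21. Ccl11, a further eotaxin, was at 8.00, 8.86 and 8.94 against 9.75 to 10.53, also apart, and was not called in either fit (-0.34 ± 0.35, adjusted p = 0.788). Il4 was at 6.62, 7.14 and 6.43 against 7.29 to 8.63 (-0.68 ± 0.43, adjusted p = 0.556; called with array as a random block at -1.19). Il13 was above background in 0 of 8 controls and 0 of 3 exposed samples, so its level was not measurable. Il33 (0.37 ± 0.29), Ccl17 (-0.34 ± 0.42) and Muc5b (-0.35 ± 0.70) overlapped between groups and were not called. Ccl17 and Muc5b were called lower with array as a random block, at -0.77 and -0.98.

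Genes of injured epithelium and of matrix remodelling were among those called higher. Of 15 injury-associated epithelial genes 5 were called higher and 0 lower, with a median of 0.79. Sfn, a keratinocyte 14-3-3 protein, was at 12.09, 11.84 and 11.82 against 10.45 to 10.70 (1.77 ± 0.31, adjusted p = 0.00333; 1.08 with array as a random block), with all exposed samples above the controls. Ereg, an epidermal growth factor receptor ligand, was not well above background in any of the 8 OVA controls and was at least 2.91-fold higher (fitted adjusted p = 0.0243, or 0.325 without exposed replicate 2). The keratins Krt7 (0.91 ± 0.17) and Krt19 (0.85 ± 0.21) were also called. Krt19 was at 1.31 without exposed replicate 2. The call of Krt7 was lost with array as a random block, at 0.43.

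Of 24 matrix genes 7 were called higher and 0 lower (median 0.85). Tnc, the wound matrix protein tenascin C, was at 8.03, 8.36 and 7.90 against 6.54 to 7.15 (1.76 ± 0.28, adjusted p = 0.00176). Col5a1 was at 11.38, 11.61 and 11.73 against 10.12 to 10.58 (1.39 ± 0.22, adjusted p = 0.00176). The groups stood apart in both. Collagen 3 (Col3a1, 1.07 ± 0.26) and the collagen cross-linkers Lox (1.38 ± 0.22) and Loxl2 (0.81 ± 0.16) were also called, and Adamts4 (1.78 ± 0.41; 1.04 with array as a random block, and 0.87 and not called without exposed replicate 2) was called with groups that overlapped. Timp1, an inhibitor of matrix proteases, was at 13.66, 13.74 and 12.66 within the control range of 13.11 to 14.77 or below it, and its log2 fold change of 1.05 ± 0.61 (adjusted p = 0.513) was -0.50 with array as a random block.

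Few markers of the resident epithelium were called. Of 14 surfactant and alveolar type 2 genes Sftpd (1.04 ± 0.21, adjusted p = 0.0108; 0.62 with array as a random block) and Ctsh (0.99 ± 0.18, adjusted p = 0.00412) were called higher. Pdpn (0.97 ± 0.18, adjusted p = 0.00691; 0.60 with array as a random block, and 0.54 and not called without exposed replicate 2) was the only called gene of 11 alveolar type 1 markers, and 0 of 15 club and ciliated cell markers were called. Of 17 endothelial markers Gpihbp1, which holds lipoprotein lipase on capillaries, was called (-0.89 ± 0.23, adjusted p = 0.0479). Of 33 mitotic and replication genes 5 were called higher (median 0.73), among them Cdc20 (1.20 ± 0.28), Aurka (1.06 ± 0.25) and Top2a (1.03 ± 0.23). With array as a random block these values were 0.77, 0.62 and 0.57, and Top2a was no longer called. In the fit with array terms no gene was called among 9 platelet, 15 interferon response, 19 cholesterol or 17 circadian clock genes. The platelet gene Pf4 (1.06), the clock output gene Dbp (-1.01) and the club cell marker Cyp2f2 (-0.79) were called with array as a random block. Under the alternatives up to 6 club and ciliated cell markers were called higher and up to 2 lower. Up to 3 clock genes and up to 2 interferon response genes were called lower there.

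Further genes outside the cell type lists fell. Cyp1a1, the aryl hydrocarbon receptor target that oxidizes aromatic compounds and the 1 called gene of 8 such targets, was at 5.48, 5.39 and 5.50 against 6.80 to 7.48 (median 7.15), a log2 fold change of -2.19 ± 0.29 (adjusted p = 0.000186; -0.98 with array as a random block). Its probe was above background in 2 of the 3 exposed samples and 6 of the 8 controls, so that its levels, the exposed ones most, lay close to the limit of detection. Igfbp3, which binds insulin-like growth factors, was at 10.19, 10.20 and 10.17 against 11.35 to 12.33 (-2.14 ± 0.30, adjusted p = 0.000372). Esm1, a proteoglycan of activated endothelium, was at 9.15, 9.19 and 8.79 against 9.90 to 11.03 (-2.26 ± 0.40, adjusted p = 0.00419), and Colq, the collagen tail of acetylcholinesterase, at 8.76, 8.70 and 8.80 against 10.34 to 11.23 (-2.26 ± 0.36, adjusted p = 0.00176). Rises outside the lists included Dmbt1, a mucosal scavenger receptor protein, at 8.26, 8.43 and 8.55 against 5.95 to 6.70 (3.01 ± 0.54, adjusted p = 0.00419; above background in 4 of the 8 controls), and the protease gene Asprv1 at 9.52, 9.19 and 8.67 against 6.66 to 7.18 (2.99 ± 0.55, adjusted p = 0.00524). Cyp1a1 and Igfbp3 had no exposed sample within the control range. Esm1, Colq, Dmbt1 and Asprv1 had none either, but the rule that named them required this.

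Dose was examined within OVA-challenged mice. CuO 40 + OVA differed from CuO 10 + OVA in 45 genes (0.196%), 16 higher (0.0698%) and 29 lower (0.127%). The number fell to 3 without exposed replicate 2, to 22 without exposed replicate 3 and to 20 without CuO 10 + OVA replicate 1, and was 354 with array as a random block. The Ear genes were lower at the higher dose (Ear2 -2.49 ± 0.45, adjusted p = 0.0223; Ear1 -2.40; Ear10 -2.33), as were the activation marker Cd83 (-2.12, adjusted p = 0.00496), the T cell genes Cd6 (-1.90), Cd3d, Cd28 and Sh2d1a, and H2-Ab1 and H2-Eb1. Higher at the higher dose were Eln, or elastin (2.01, adjusted p = 0.0447), Tnc (1.58, adjusted p = 0.0223), the phospholipase gene Pla1a (1.33), the TWEAK receptor gene Tnfrsf12a (1.32, adjusted p = 0.00496), Lox, Krt7, Krt19 and Epha2. Hmox1 was called at 1.62 (adjusted p = 0.0447) and Hp at 1.27 (adjusted p = 0.0331), but with array as a random block neither was, at 0.71 and 0.74. Tnc and Lox were at 1.01 and 0.76 in that fit, against 1.58 and 1.16, and kept their calls.

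The effects at the lower doses share the OVA controls with the effect at 40 and are given side by side. With array terms, their errors have a correlation with that of the effect at 40 of 0.53 at 2.5 and 0.39 at 10. The genes compared were chosen by their call at 40, which favours larger values at 40 than at the other doses. Over the 222 genes higher at 40, the median log2 fold change was 0.53 at 2.5, 0.50 at 10 and 1.07 at 40. Of these genes 0 were called at 2.5 and 32 at 10. Over the 139 lower genes the medians were -0.45, -0.39 and -1.05, with 0 and 3 called. Across all genes, 61 (0.266%; 0.21% higher and 0.0567% lower) were called at 10 and 0 (0%) at 2.5, where 913 genes had an unadjusted p below 0.05 and the smallest adjusted p was 0.281. At 2.5, replicates 1 and 3 had no second sample on their arrays, so that the effect with array terms rests on replicate 2. Hmox1 had a log2 fold change of 2.67 at 2.5 (not called), 2.41 at 10 (called) and 4.03 at 40, with mean levels of 12.25, 12.91 and 13.74 against 11.45 in the controls. Mt2 had 0.51, 1.44 and 2.65, and was called at 10 and 40. Ear2 had 0.14, -0.80 and -3.29, and was called at 40 only among these doses.

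Levels of genes that were low at 40 are given for each sample of the lower doses. Muc5ac was at 11.44, 11.94 and 11.81 at 2.5, at 11.78, 11.73 and 11.34 at 10, and at 9.16, 8.78 and 9.14 at 40. H2-Eb1 was at 15.69, 15.74 and 15.73 at 2.5, at 15.44, 15.73 and 15.42 at 10, and at 14.22, 14.18 and 14.25 at 40. In both genes every sample at 2.5 and 10 lay within or above the range of the OVA controls, and the samples at 40 alone among these doses lay below it. Ear2 was at 13.92, 14.52 and 14.84 at 2.5 and at 13.64, 13.07 and 13.58 at 10, so that its samples at 10 lay between the controls and those at 40. Orm1 was at 8.54, 8.18 and 7.87 at 2.5 and at 9.77, 10.89 and 8.91 at 10, above the controls at either dose.

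**Figure D3:**
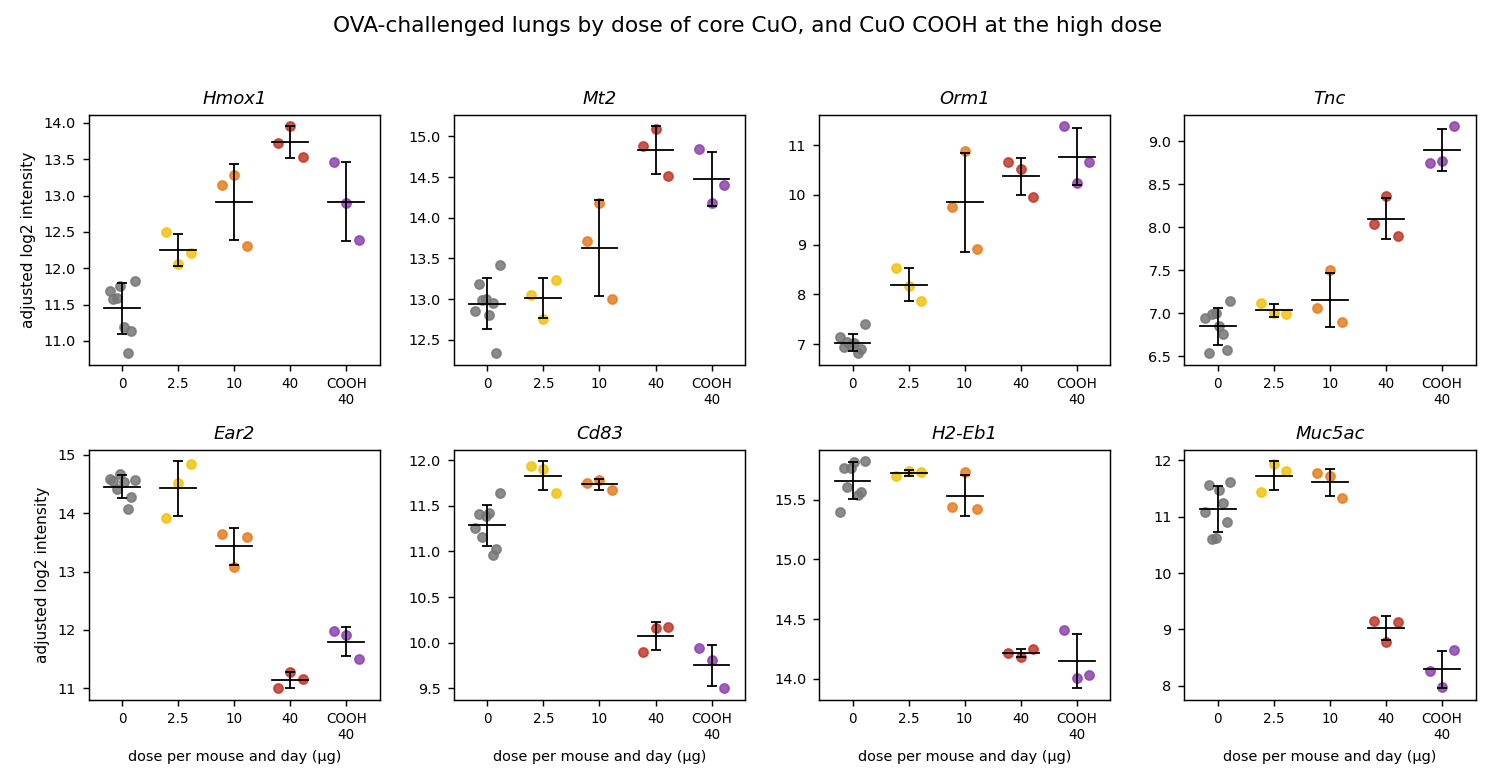
Adjusted log2 intensity of 8 genes in each sample of OVA-challenged mice given no particles (0, n = 8), core CuO at 2.5, 10 or 40 μg, or CuO COOH at 40 μg (n = 3 each), with group mean (line) and SD (bars). The H2-Eb1 and Muc5ac samples at 40 all lay below those at 2.5 and 10, whereas Hmox1 had mean levels of 12.25, 12.91 and 13.74 over the doses.

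Carboxylated particles carry carboxyl groups on their surface, which core particles lack. The dose was matched by mass of the whole material, and the paper reports less copper in CuO COOH than in core CuO. It also reports larger aggregates and faster copper dissolution for CuO COOH in physiological saline. The part of each in the differences below cannot be told apart. The direct comparison of CuO 40 + OVA with CuO COOH 40 + OVA covered 1 pair of materials and 22911 genes, and 1 gene (0.00436%), Hmox1, was called, while 568 had an unadjusted p below 0.05. Hmox1 was at 13.73, 13.96 and 13.53 with core CuO and at 13.47, 12.90 and 12.39 with CuO COOH, so that replicate 1 of the latter came close to the core samples. The fitted difference was 2.44 on the log2 scale (95% interval 1.70 to 3.17, adjusted p = 0.0122). With array as a random block it was 0.79 and was not called, and the call was also lost without any 1 of the 3 exposed replicates or without CuO COOH replicate 2 or 3. In the random block fit 63 genes were called, 9 higher and 54 lower with core CuO, among the latter Ccl5 (-1.32). Among the gene lists, the median difference with array terms was lowest for interferon response genes (-1.12) and highest for neutrophil markers (0.69). For Mt1 the difference was 0.93 (95% interval 0.49 to 1.37), for Clec4d 1.53 (0.82 to 2.23), for Orm1 1.08 (-0.49 to 2.64) and for Ear2 -0.85 (-1.83 to 0.13), none of them called. The levels with CuO COOH were 14.84, 14.18 and 14.40 for Mt2, 11.98, 11.91 and 11.51 for Ear2 and 8.26, 7.97 and 8.64 for Muc5ac, each apart from the OVA controls. Ear2 lay above the 3 core samples and Muc5ac below them, whereas Mt2 overlapped with them. Over the 222 genes higher with core CuO, the median log2 fold change against OVA controls was 1.07 for core CuO and 0.82 for CuO COOH, and 160 were called in the same direction with CuO COOH. For the 139 lower genes the medians were -1.05 and -0.76, with 95 called. Both sets were chosen by their call with core CuO, which favours larger effects for core CuO. CuO COOH 40 + OVA had 874 called genes (3.81%; 2.23% higher and 1.59% lower) against the same controls. The median SE of a log2 fold change was 0.14 for CuO COOH and 0.19 for core CuO. Their numbers of calls are therefore no measure of which response was larger.

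The same dose in PBS-challenged mice (CuO 40 minus PBS controls) gave 3218 called genes (14%), 1791 higher (7.82%) and 1427 lower (6.23%). Of the 361 genes called in OVA-challenged mice, 345 were also called there in the same direction, which is 95.6% of the first and 10.7% of the second list. With array terms both effects rest in part on the same arrays, and their errors have a correlation of 0.39. With dye, slide and position as terms this was 0.16 and the overlap 67% and 18.9%, and with no batch terms it was 0 and the overlap 69.6% and 22.4%. Over the 361 genes, which were chosen by their call in OVA-challenged mice, the median ratio of the effect in OVA-challenged to that in PBS-challenged mice was 0.73. With dye, slide and position as terms this ratio was 0.90, and with no batch terms 0.87, each over genes called in that fit.

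**Figure D4:**
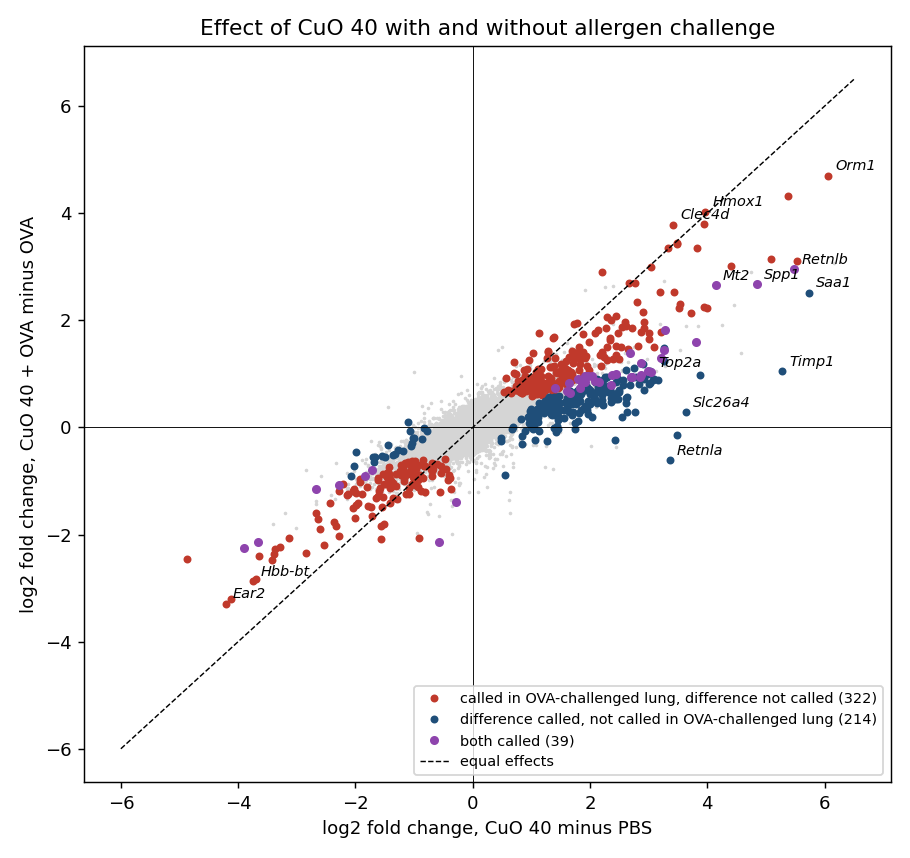
Log2 fold change of core CuO 40 in OVA-challenged mice (vertical axis) against that in PBS-challenged mice (horizontal axis), 1 point per gene, with called genes and genes whose difference of effects was called in colour. Red points were called in OVA-challenged mice, blue points had a called difference only, purple points had both, and the dashed line marks equal effects. Most genes with a called difference lay nearer to 0 on the vertical axis, as Timp1 did at 1.05 against 5.28.

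The difference of both effects was called for 253 genes (1.1%), 28 higher (0.122%) and 225 lower (0.982%) in OVA-challenged mice, and in 250 of them the effect in OVA-challenged mice was the one nearer to 0. The count was 44 without CuO 40 replicate 2, 94 without PBS replicate 3, 145 without CuO 40 + OVA replicate 1 and 1158 with array as a random block, 375 higher and 783 lower. With dye, slide and position as terms, 407 genes were higher and 833 lower, and in 1084 of these 1240 the effect with OVA was the one nearer to 0, as it was in 912 of 1063 with no batch terms. The mitotic genes made up a large group. Of 33, 31 were called higher in PBS-challenged mice (median 2.19), 5 in OVA-challenged mice (median 0.73), and for 27 the difference was called, each time lower with OVA. Top2a, which untangles DNA in dividing cells, had a log2 fold change of 3.04 against 1.03 (difference -2.01, adjusted p = 0.000285) and Aurka, a spindle kinase, 2.99 against 1.06 (difference -1.93, adjusted p = 0.00044). The OVA controls themselves were above the PBS controls in this list, with list means of 8.73 to 9.30 against 7.34 to 7.83. After CuO 40 the list means were 9.31 to 9.41 with OVA and 9.40 to 9.55 with PBS.

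Of 20 recruited macrophage markers 16 were called higher in PBS-challenged mice (median 1.62) and the difference was called for 8, each lower with OVA, among them Spp1 (4.85 against 2.68, difference -2.17, adjusted p = 0.00398). Timp1 (5.28 against 1.05, adjusted p of the difference 0.00169), Retnla (3.36 against -0.61, adjusted p = 0.00268), the ion transport regulator Fxyd4 (3.48 against -0.14, adjusted p = 0.00678) and the anion exchanger Slc26a4 (3.64 against 0.29, adjusted p = 0.00465) differed most. In this order, OVA controls were above PBS controls by log2 fold changes of 3.87, 4.24, 3.59 and 4.36. After CuO 40 their mean levels were 13.35, 17.11, 9.77 and 12.20 with OVA and 13.95, 16.73, 9.80 and 11.47 with PBS. The called differences thus go with higher starting levels in OVA controls. Mt2 had 4.14 against 2.65 (difference -1.49, adjusted p = 0.044). Hmox1 (3.96 against 4.03), Fth1 (1.73 against 1.93) and Clec4d (3.42 against 3.78) had no called difference. No T cell, NK cell, dendritic cell or erythrocyte marker had one either, with list medians in PBS-challenged mice of -1.09, -1.08, -0.64 and -3.29.

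**Figure D5:**
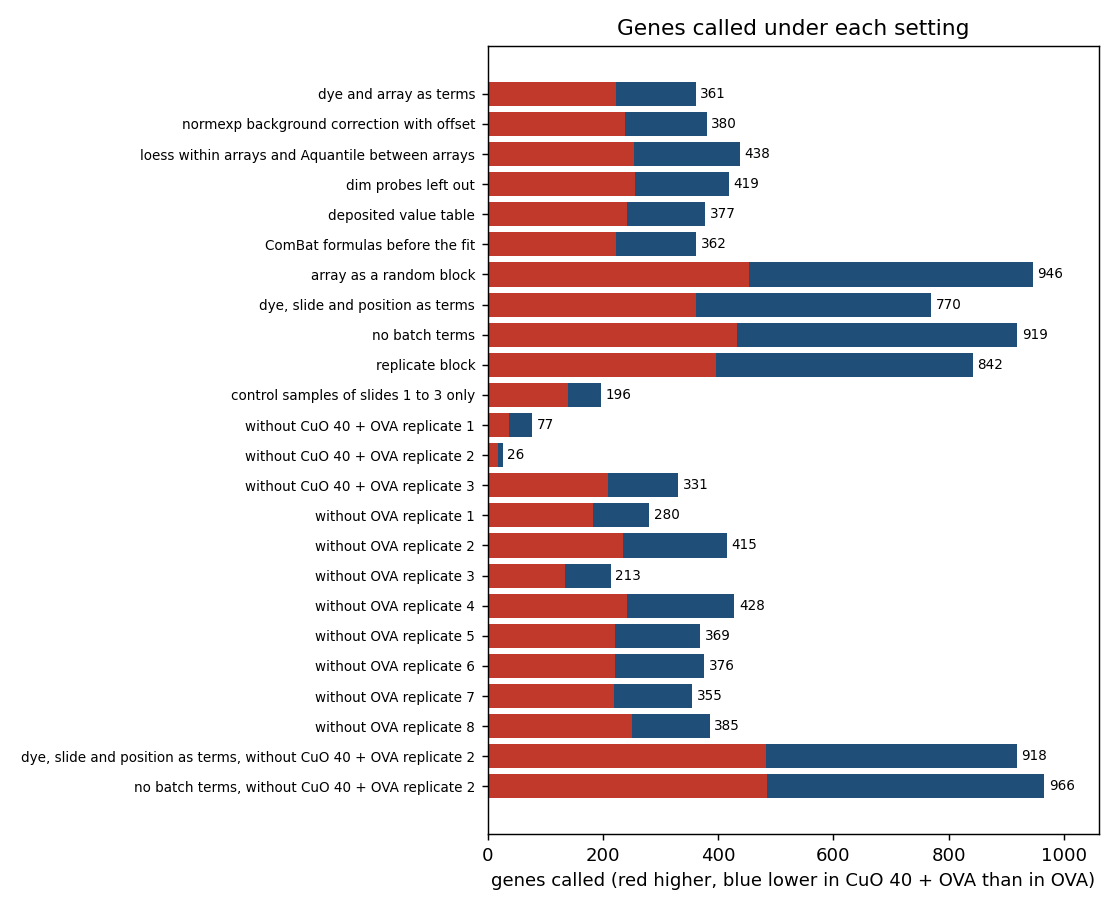
Number of genes called higher and lower in CuO 40 + OVA against OVA controls under each processing alternative. The fit with dye and array called 361, array as a random block 946, and leaving out exposed replicate 2 left 26.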

How the data were processed

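The authors deposited the scanner output of each array, with the median foreground and background intensity of every spot per channel (Agilent Feature Extraction 12.0.2.2 per the file headers), and their own normalized log2 value of each probe. For each of the 89 samples (26 groups, 46 arrays, 6 slides), the foreground intensity of the channel named by the label was quantile normalized on the log2 scale, with no subtraction of background. Control spots (3671 of 62976) and outlier spots were left out, and 32994 probes with a RefSeq gene were averaged to 22911 genes. Array number limits precision, the median SE of a log2 fold change being 0.19. A model with all groups, dye and array was fitted with limma 3.58.1 in R 4.3.3 (jsonlite 2.0.0, and the package data.table at version 1.17.8), moderated over genes, and a gene was called where its adjusted p lay under 0.05 and its log2 fold change beyond 0.58 either way. Motifs and figures were made with Python 3.11.15, numpy 2.4.6 and matplotlib 3.10.9. According to their methods the authors used quantile normalization, ComBat and limma.

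The 33 gene lists, written by hand, and the groups compared were chosen with earlier results of these data known. Named genes were the 12 largest rises and falls among called genes whose groups did not overlap, the 5 largest per direction in the other contrasts, up to 4 called members per list (the 2 largest where none was called) and 15 genes of the metal, allergic and chemokine response taken whatever their result. In the first groups, unnamed transcripts were passed over. Other list members were named after their values were seen, to complete a count. A member was compared with the same count over all genes, and no list was tested as a set. Alternatives used normexp (offset 50), loess with Aquantile, dim probes left out (under 3 samples above background), the log2 values deposited, ComBat, other batch terms, a replicate block, controls of slides 1 to 3 and each sample left out. The fit was tested on simulated data. Proteins were not used here. Some members of the lists are not reported here by name.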

Additional observations from a re-analysis of the deposited data

Results flagged for a closer look

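For 19 of the 112 named genes, the effect of core CuO 40 differed between OVA-challenged and PBS-challenged mice by a called interaction (limma, Benjamini-Hochberg over 22911 genes). The difference is given as the effect in OVA-challenged minus that in PBS-challenged mice, on the log2 scale. Rises were smaller with OVA for Timp1 (-4.23), Retnla (-3.97, whose effect with OVA was below 0), Fxyd4 (-3.62, likewise), Slc26a4 (-3.35), Saa1 (-3.21, adjusted p = 0.026), Retnlb (-2.53, adjusted p = 0.0219), Spp1 (-2.17), Mt2 (-1.49), Il33 (-1.52, adjusted p = 0.0146) and Cd14 (-1.46, adjusted p = 0.0341). The same held for the cell division genes Top2a (-2.01), Aurka (-1.93), Cdc20 (-1.66, adjusted p = 0.00545) and Mcm6 (-0.82, adjusted p = 0.0403). Falls were smaller with OVA for Colq (1.64, adjusted p = 0.0451), Prdm8 (1.53, adjusted p = 0.0054; 0.99 with array as a random block), Igfbp3 (1.52, adjusted p = 0.0195), Pon1 (1.51, adjusted p = 0.0106) and Ehd4 (1.30, adjusted p = 0.00291). OVA controls already lay above PBS controls for Timp1 (3.87), Saa1 (3.14), Retnlb (2.68) and Spp1 (2.50), and below them for Igfbp3 (-1.36) and Pon1 (-1.29).

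Among the 8 OVA controls, 1 sample stood apart from the others in 2 of the 112 genes. These were Pdpn, highest in replicate 3 at 13.79, and Pf4, highest in replicate 8 at 12.33 (adjusted log2 intensities). By chance the rule marks about 1 in 20 independent genes. The named genes share the same controls and many were chosen for groups that did not overlap, so that this rate cannot be applied to them.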

How the results depend on the processing

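The calls against OVA controls numbered 361 and stayed within 1.5 times of this with normexp (380), loess (438), dim probes left out (419), the deposited table (377) and ComBat (362). They numbered 946 with array as a random block (453 higher, 493 lower), 770 with dye, slide and position, 919 with no batch terms, 842 with a replicate block and 196 with controls of slides 1 to 3 (140 higher, 56 lower). The share of higher genes among calls thus moved with the batch terms. Without 1 sample they numbered 26 to 428. Chosen after seeing the data, leaving out exposed replicate 2 gave 918 with dye, slide and position and 966 with no batch terms.

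The difference from the effect in PBS-challenged mice gave 410 calls with loess, 1158 with array as a random block, 1240 with dye, slide and position, 1063 with no batch terms and 1129 with a replicate block, and 44 to 319 without 1 sample. Under the same 5 settings in this order, CuO 40 + OVA against CuO 10 + OVA gave 120, 354, 350, 347 and 391 calls (3 to 42 without 1 sample). Core CuO against CuO COOH gave 63, 74, 78 and 138 calls under the last 4 of them (0 to 1 without 1 sample; the 0 counts are limma's, with 610 to 1138 genes at an unadjusted p below 0.05). The cause of these moves was not tested. Equal replicate numbers were not taken as pairs in the main fit. Deviations of samples with equal numbers had correlations of -0.40, -0.20 and -0.11 for numbers 1, 2 and 3, and those with unequal numbers of -0.34 to 0.33. With 3 exposed samples, these values cannot show whether the samples were paired.

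Of the values of named genes against OVA controls under the alternatives, 2012 kept direction and side of the threshold, 86 gained the call, 226 lost it and 27 changed sign. Some signs turned under the last 4 of those settings, given in that order. Timp1 was at -0.50, -0.54, -0.54 and -0.56, Slc26a4 at -1.07, -1.12, -1.18 and -1.10, and Il33 at -0.17, -0.26, -0.19 and -0.29. Retnla was at 0.17, 0.012 and 0.22 under the first 3 of these 4. Without 1 sample, values ranged from -1.57 to 0.0252 for Retnla, -0.77 to 0.25 for Fxyd4, -0.18 to 0.75 for Slc26a4, -0.16 to 2.93 for Hspa1b, -2.04 to 0.24 for Fcgbp, -2.55 to 0.69 for Muc5ac, -1.97 to 0.0567 for Ccl24, -0.23 to 0.11 for Il13 and -0.95 to 0.87 for Muc5b. Of 429 medians of gene lists under the batch terms and without 1 sample, 113 moved by more than 1 SD of the list mean among OVA controls. Dim genes such as Il13 and Ereg in the controls are limited by background.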
